A study of Mus musculus with 21 samples.

Results

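Libraries labelled aged Trem1-/- were set against libraries from young wild-type mice, in RNA sequencing of primary mouse brain microglia. The comparison was chosen by labels alone and held 6 libraries, 3 of each group, while the aging table has 12 and the series 21. Its features were the 16086 of 54532 gene rows with a mean normalised count of at least 10 over the 12 aging libraries. Age was labelled Young or Aged with no months, and genotype Wild Type or Trem1-/-, so this contrast changes age and genotype together and their effects cannot be told apart in it. The other groups of the table, young mice labelled Trem1-/- and aged wild-type mice, also held 3 libraries each, and their values are set beside those of the pair compared. The labels name no strain, sex, isolation step or sort gate, and they do not say which part of Trem1 was removed. Whether each library came from its own animal is not stated either, and p-values then measure only the spread between these samples, which may be technical.

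Microglia are the resident macrophages of the brain. They depend on signalling through the receptor CSF1R and keep a homeostatic gene programme that includes the ADP receptor P2RY12 and the transcription factor SALL1. TREM1 is a receptor of neutrophils, monocytes and macrophages that pairs with the adaptor DAP12, signals through SYK and amplifies inflammatory responses. TREM2, encoded in the same gene cluster, uses the same adaptor and is known in microglia for lipid sensing and phagocytosis.

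Trem1 itself was measured first (chromosome 17, start 48232768, end 48246924, plus strand of GRCm38, a protein-coding gene). Its normalised counts in young wild type were 25.2, 7.65 and 8.74, from 27, 7 and 10 reads. In the libraries labelled aged Trem1-/- they were 124, 124 and 244, from 133, 100 and 162 reads. All 3 labelled knockout libraries therefore lay above all 3 wild-type libraries, the opposite of what a loss of the transcript would give. Trem1 rose by 3.59 ± 0.45 (SE) on the log2 scale (adjusted p = 1.9e-05). Young mice labelled Trem1-/- had a mean of 92.9 and aged wild type a mean of 231. The table holds no counts per exon, so a transcript that lacks part of the gene would still be counted. The series' own design line names heterozygous microglia, while the labels of these libraries read Trem1-/-. Adult libraries of the same series, outside this comparison, carry heterozygous labels. Whether the design line refers only to those was not settled here. Groups are named below by their labels, and every direction rests on those labels.

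Sequencing depth was 11939584 to 15328991 reads on genes in young wild type and 8600878 to 14163297 in the libraries labelled aged Trem1-/-. Replicate 3 of the latter had the fewest reads and the most genes detected, 24877 against 18749 to 23872 in the other 11 libraries. The noncoding RNA Gm26917 took 1.07% to 1.97% of reads in young wild type and 2.16% to 3.74% in the libraries labelled aged Trem1-/-. Transcripts of the mitochondrial genome took 0.58% to 0.85% and 0.65% to 0.94%. All 30 homeostatic microglial genes fixed as markers passed the filter on low values. Their part and that of depth in the results was not tested. Libraries labelled Trem1-/- go against that label at Trem1, and no other library was set apart by its label.

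Differences are given as log2(normalised count + 1) in the libraries labelled aged Trem1-/- minus young wild type, with the standard error of the limma fit over all 12 libraries. A gene was called at a Benjamini-Hochberg adjusted p under 0.05 over the 16086 genes. By this rule 748 genes rose (4.65%) and 325 fell (2.02%), which is 1073 in either direction (6.67%). Centring every library on its median gene, which moved the median difference over all genes from 0.003 to -0.136, gave 681 higher and 1044 lower. The rises were larger, with a median of 2.01 and a range of 0.38 to 5.78. The falls had a median of -0.50 and reached from -0.26 to -4.48. At least a 2-fold change was seen in 610 of the genes that rose and in 22 of those that fell. Genes called lower were read more deeply, with a median young wild-type normalised count of 2730 (not divided by length) against 77.4 for genes called higher and 182 for all genes tested. The 2 groups did not overlap in 1057 of the called genes, and they did not overlap in 23.1% of all genes tested. Among 12719 protein-coding genes 714 rose and 322 fell. Without aged Trem1-/- replicate 1 the number that rose was 460. The number that fell was 190, 181 and 146 without young wild-type replicates 1, 2 and 3, and 161 without aged Trem1-/- replicate 2. Limma without its trend and robust settings called 338 higher and 31 lower.

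**Figure D1:**
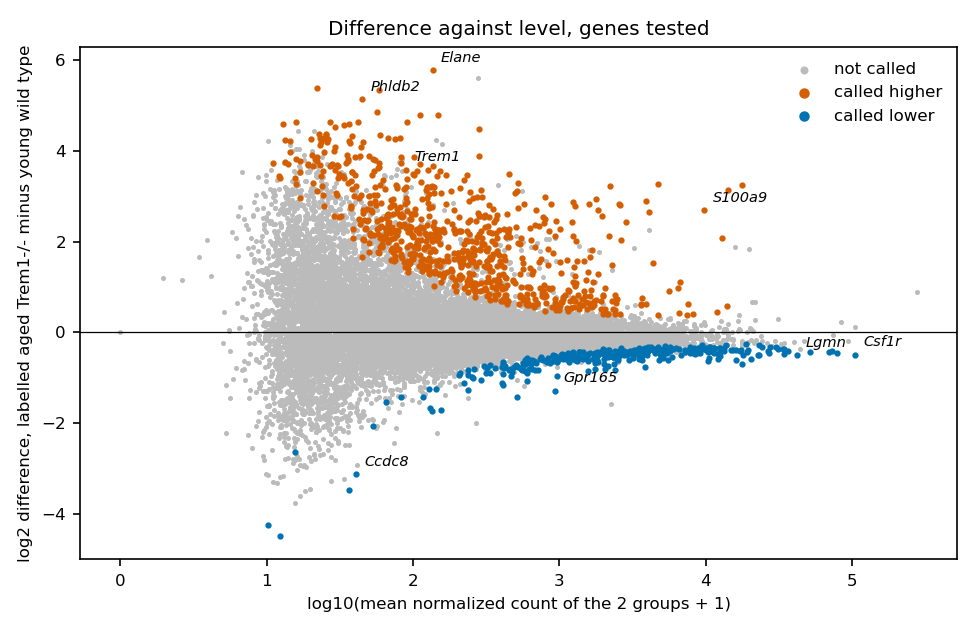
Each point is 1 of the genes tested; the x axis is log10 of the mean normalised count of the 2 groups plus 1, and the y axis is the log2 difference, labelled aged Trem1-/- minus young wild type. Orange points are the 748 genes called higher, blue points the 325 called lower and grey points the rest. The blue points lie mostly close below 0 at high counts, while the orange points reach 5.78 at Elane.

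Among the genes with the largest rises, Prtn3 and Elane encode products of neutrophils and their precursors. Prtn3, proteinase 3 of the primary granules, had normalised counts of 13.1, 0 and 0 in young wild type and of 190, 77.2 and 63.2 in the libraries labelled aged Trem1-/-. It rose by 5.35 ± 0.81 (adjusted p = 0.00021), and its groups did not overlap. Elane, neutrophil elastase, lies beside Prtn3 on chromosome 10 and had 29.9, 0 and 0 against 516, 220 and 43.6. It rose by 5.78 ± 1.32 (adjusted p = 0.0314), the largest difference among the called genes. Adjusted p of Elane was 0.132 and 0.119 when young wild-type replicates 2 and 3 were left out in turn, and 0.065 and 0.103 for aged Trem1-/- replicates 1 and 2, so that each of these libraries decided the call. The remaining genes named in this text as risen or fallen stayed past the threshold when each of the 6 libraries was left out in turn, unless a sentence says otherwise.

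Genes of other functions were also among the largest rises. Inhba, which encodes the beta A subunit of activins and inhibin, had 36.4, 2.19 and 6.99 in young wild type and 284, 358 and 197 in the libraries labelled aged Trem1-/-. It rose by 4.79 ± 0.74 (adjusted p = 0.00145). Klf5, a zinc finger transcription factor, rose by 4.64 ± 0.85 (adjusted p = 0.00328), from 15.9, 0 and 14.9 to 222, 197 and 93.3. Dnah8, a heavy chain of axonemal dynein, rose by 4.79 ± 0.72 (adjusted p = 0.00038), with 221, 219 and 197 against 16.8, 1.09 and 11.4. For all 3 genes each library labelled aged Trem1-/- was above each young wild-type library. Phldb2, a cytoskeleton-linked protein, had 6 reads over the 3 young wild-type libraries and 205 over the 3 libraries labelled aged Trem1-/-. The ratio of its normalised levels was 42.1, with a counting interval of 19.0 to 116 (exact, 95%). Slc28a3, a nucleoside transporter, had 5 against 129 reads and a ratio of 31.8 (13.3 to 99.6). Its call was lost without aged Trem1-/- replicate 1 (adjusted p = 0.0507). Such intervals hold counting error alone, as no molecular identifiers tell copies of a molecule apart. Zfp521, a zinc finger protein, rose by 4.86 ± 1.06 (adjusted p = 0.00605), and DESeq2 gave it an adjusted p of 0.0799.

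The largest falls were smaller than the largest rises. Gpr165, an orphan receptor gene of the homeostatic list, had 993, 1562 and 1425 in young wild type and 458, 576 and 579 in the libraries labelled aged Trem1-/-. It fell by 1.28 on the log2 scale (SE 0.20, adjusted p = 0.00024). The groups were apart, with the highest aged value below the lowest young one. Tmem39b, a membrane protein gene, fell by 1.73 (SE 0.37, adjusted p = 0.00536), from 175, 295 and 147 to 95.2, 58.5 and 36.1. Sema6d, a semaphorin, fell by 1.42 (SE 0.30, adjusted p = 0.00619), from 770, 629 and 851 to 340, 230 and 275, and had an adjusted p of 0.0506 without aged Trem1-/- replicate 2. Ccdc8 had the most negative value among the named falls, -3.12 ± 0.89 (adjusted p = 0.0361). It kept the call in only 1 of the 6 fits with a library left out, the one without aged Trem1-/- replicate 1, and the other 5 gave adjusted p of 0.0674 to 0.136. Plpp2, Ptger3, Lrfn1, Nat2, Zfp119b and the ribosomal protein pseudogene Rps12-ps3, whose reads can be shared with its parent gene, had values of -2.06, -1.72, -1.68, -1.55, -1.42 and -1.43. Each of these 6 also lost the call in at least 2 of those fits.

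**Figure D2:**
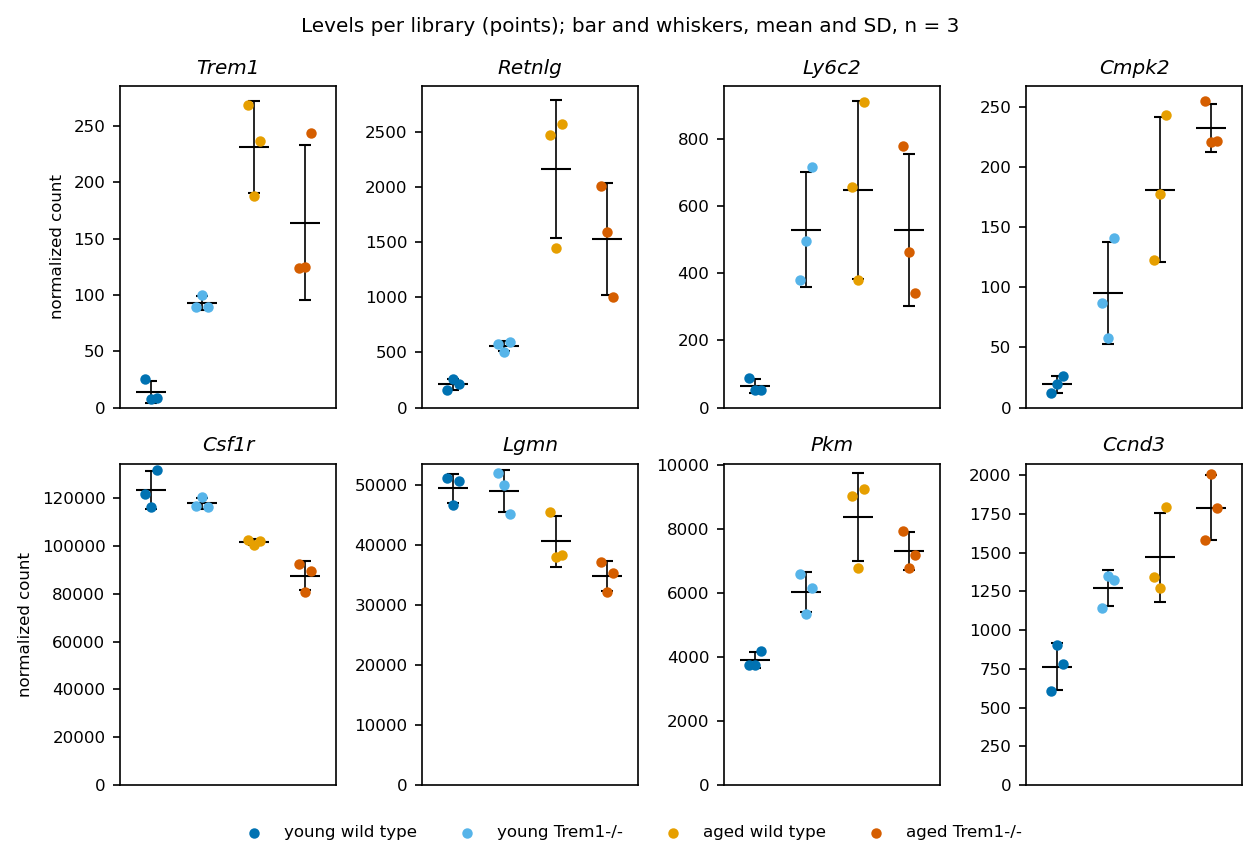
Normalised counts (y axis, linear, from 0) of 8 genes in the 12 libraries of the aging table, with points for libraries, a horizontal bar for the mean and whiskers for the SD (n = 3 per group). In each panel the 3 libraries labelled aged Trem1-/- lie wholly above (Trem1, Retnlg, Ly6c2, Cmpk2, Pkm, Ccnd3) or wholly below (Csf1r, Lgmn) the 3 young wild-type libraries.

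Genes of the homeostatic microglial programme fell together in count. Of 30 measured members 20 fell (66.7%, against 2.02% of all genes tested), with a median of -0.44 against 0.003 over all genes tested. Golm1, a Golgi membrane protein, had 21800, 20620 and 22820 in young wild type and 14440, 12960 and 12830 in the libraries labelled aged Trem1-/-. It fell by 0.70 (SE 0.08, adjusted p = 7.8e-06). Siglech, a sialic acid-binding lectin, fell by 0.61 (SE 0.09, adjusted p = 0.00021), from 19360, 19610 and 19300 to 12040, 12170 and 13900. Csf1r, the receptor on which microglia depend, fell by 0.49 (SE 0.07, adjusted p = 5e-05), from 121600, 116100 and 131800 to 92280, 80660 and 89680. For these 3 genes no library of one group reached into the range of the other. P2ry12 had -0.48, the fractalkine receptor gene Cx3cr1 -0.42 and Trem2 -0.51, all past the threshold. Tmem119, a membrane protein used as a microglial marker, had -0.22 ± 0.11 and did not pass (adjusted p = 0.306).

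The summed level of the 30 homeostatic genes was 769200 to 858900 normalised counts in young wild type and 557200 to 639800 in the libraries labelled aged Trem1-/-. It was 715400 to 757800 in young mice labelled Trem1-/- and 641900 to 656800 in aged wild type. In bulk samples fewer cells of a type and less RNA per cell cannot be told apart. The count of members that fell was 14 to 21 with each library left out, 20 by DESeq2 and 24 with centring on the median gene, but 3 with limma without trend and robust settings. The summed levels of neutrophil and monocyte markers, given next, were higher in the same libraries, and their part in the falls was not tested.

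Neutrophil markers rose as a group. Of 19 measured members 17 rose (89.5%, against 4.65% of all genes tested), with a median of 2.94. The count was 12 to 18 with a library left out, 18 by DESeq2 and 14 with limma without trend and robust settings. In 18 members the groups did not overlap, as in 23.1% of all genes tested. Retnlg, a resistin-like protein of neutrophils, had 162, 258 and 213 in young wild type and 2007, 1588 and 999 in the libraries labelled aged Trem1-/-. It rose by 2.82 ± 0.26 (adjusted p = 7.8e-06). Mcemp1, a membrane protein of mast cells and myeloid cells, rose by 2.95 ± 0.28 (adjusted p = 7.2e-07), from 56.9, 72.2 and 41.9 to 558, 490 and 307. Padi4, the enzyme that citrullinates histones in neutrophil extracellular traps, rose by 2.25 ± 0.28 (adjusted p = 2.5e-05), from 123, 123 and 127 to 888, 741 and 317. In all 3 genes replicate 3 had the lowest and replicate 1 the highest value among the libraries labelled aged Trem1-/-, and the groups stayed apart. Lcn2, the siderophore-binding protein of secondary granules, rose by 3.27 ± 0.50 (adjusted p = 0.00626), from 1099, 712 and 741 to 12070, 8290 and 5248. S100a8 had 2.90 and S100a9 had 2.70, both past the threshold. The 2 members not called were Mpo, myeloperoxidase, with 5.61 ± 1.41 (adjusted p = 0.0539), and Csf3r, the receptor of granulocyte colony-stimulating factor, with 0.16 ± 0.10 (adjusted p = 0.376).

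Monocyte markers moved in the same direction, with a median of 2.26. Of 15 measured members 8 were called higher (53.3%, against 4.65% of all genes tested). With a library left out 6 to 8 were called, DESeq2 called 12 and limma without trend and robust settings 6. Ly6c2, a surface protein of classical monocytes, had 86.8, 53.6 and 51.5 in young wild type and 780, 464 and 342 in the libraries labelled aged Trem1-/-. It rose by 2.98 ± 0.35 (adjusted p = 4.6e-05). Hp, haptoglobin, rose by 2.87 ± 0.32 (adjusted p = 0.00048), from 434, 283 and 204 to 2312, 2475 and 1716. The groups did not overlap in either gene. Ccr2, the receptor that guides monocytes out of the marrow, had 2.05 ± 0.55 and did not pass (adjusted p = 0.0696). F13a1, coagulation factor XIII A and also a gene of border macrophages, had 2.12 ± 0.45 (adjusted p = 0.0264), and kept its call only without young wild-type replicate 1, with adjusted p of 0.0702 to 0.085 in the other 5 fits.

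Summed over their lists, neutrophil markers were at 17660 to 26520 normalised counts in young wild type and at 70020 to 161700 in the libraries labelled aged Trem1-/-. Monocyte markers summed to 3519 to 6679 and to 20530 to 25670. Neutrophil markers summed to 39380 to 78720 in young mice labelled Trem1-/- and to 84260 to 151800 in aged wild type, and monocyte markers to 17030 to 40600 and to 22230 to 39880. Young wild type was the lowest of the 4 groups for both sums. Border macrophage markers had a median of 0.42 and 1 of 10 members called higher (F13a1, described above), against 4.65% of all genes tested. With a library left out, 0 or 1 of these members were called higher. Border macrophage markers summed to 11490 to 13390 in young wild type and to 13200 to 13940 in the libraries labelled aged Trem1-/-.

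Lymphocyte markers were mostly under the filter: 3 of 14 T and NK cell genes and 3 of 10 B cell genes were tested. Cd3e, Cd3d, Cd3g and Trac had 0 reads in all young wild-type libraries, and Cd3g and Trac in all libraries labelled aged Trem1-/-. Il7r, the interleukin-7 receptor, was the only lymphocyte marker past the threshold, and fell by 1.17 (SE 0.25, adjusted p = 0.00507), from 446, 604 and 647 to 293, 224 and 232.

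Choroid plexus and ependymal markers had 2 of 9 members called higher (22.2%, against 4.65% of all genes tested) and a median of 1.83. The count was 0 without aged Trem1-/- replicate 2 and 1 to 3 without another library. These markers summed to 10290 to 25610 in young wild type and to 55120 to 67860 in the libraries labelled aged Trem1-/-, ranges that lay apart. Aged wild type held 46250 to 81380 and young mice labelled Trem1-/- 4318 to 26900. Ttr, transthyretin, a main product of choroid plexus epithelium, had 5383, 8719 and 13190 against 28000, 26900 and 37120, with 1.83 ± 0.63 (adjusted p = 0.147). Folr1, a folate receptor of that epithelium, rose by 1.69 ± 0.40 (adjusted p = 0.0107), from 63.4, 76.5 and 96.1 to 189, 307 and 280, with an adjusted p of 0.0571 without aged Trem1-/- replicate 2. Foxj1, a regulator of motile cilia, had 2.26 ± 0.59 (adjusted p = 0.0205) and lost the call in 4 of the 6 fits, those without replicate 1 or 2 of young wild type and without replicate 2 or 3 of aged Trem1-/- (adjusted p 0.0583 to 0.116). Limma called 0 neuronal, astrocyte and oligodendrocyte markers of 7, 9 and 8 tested. At an unadjusted p under 0.05 these lists held 1, 4 and 2 genes, and DESeq2 called 0, 0 and 1. Neuronal markers summed to 294 to 494 in young wild type and 387 to 718 in the libraries labelled aged Trem1-/-. Pecam1, an adhesion molecule of endothelium, platelets and leukocytes, fell by 0.82 (SE 0.19, adjusted p = 0.00726). It was the only call among 6 endothelial markers tested (16.7%, against 2.02% of all genes tested called lower). The median of that list was 0.44, with 3 members above 0 and 3 below. Acta2, smooth muscle actin, rose by 2.86 ± 0.58 (adjusted p = 0.00305). It was the only call among 5 pericyte and smooth muscle markers tested, all 5 of them above 0, with a median of 2.26.

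**Figure D3:**
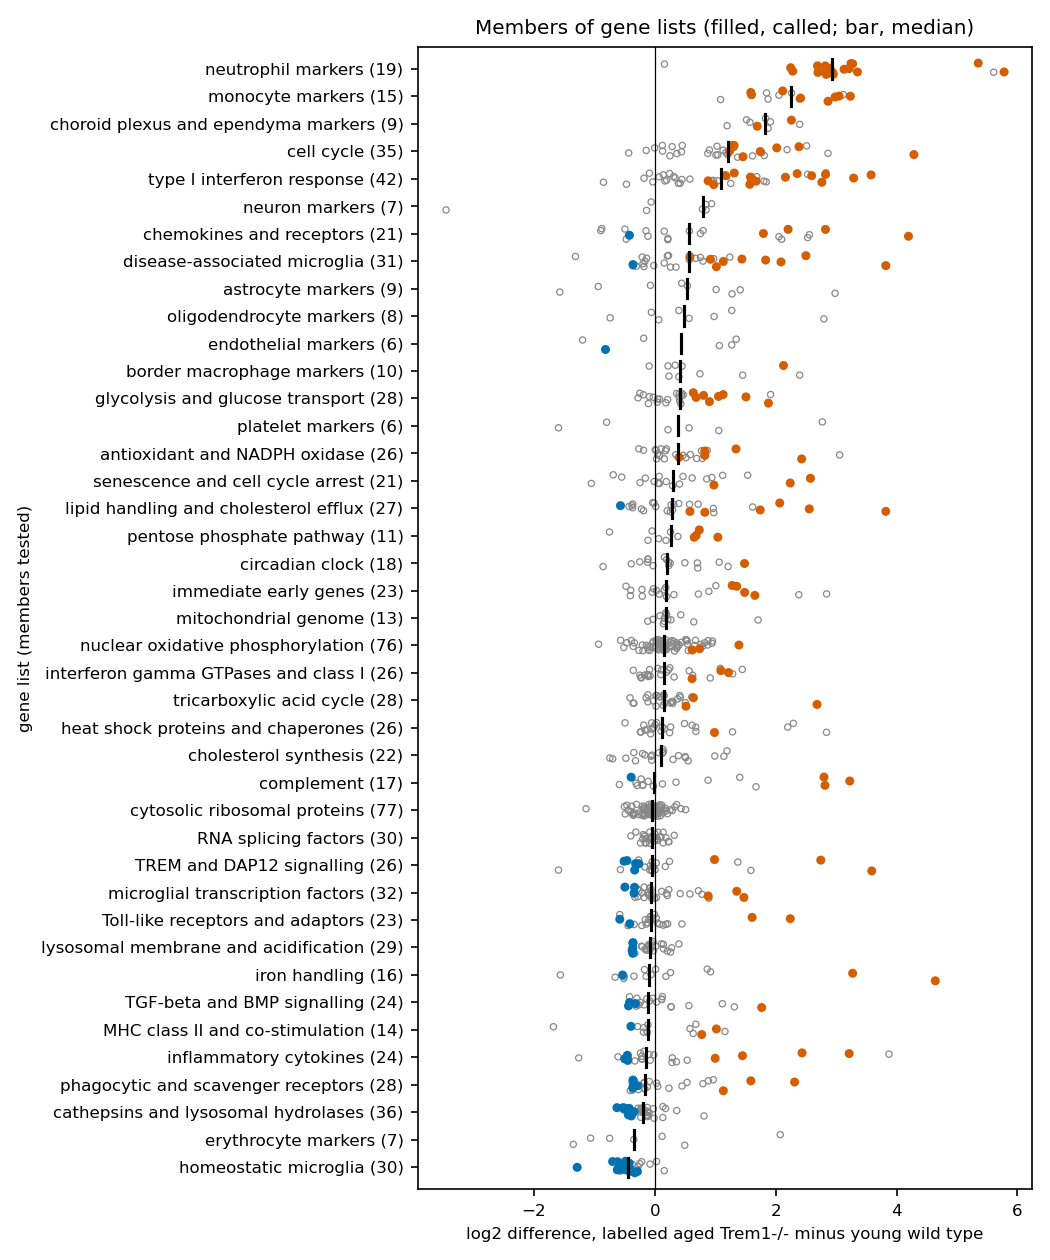
Log2 difference, labelled aged Trem1-/- minus young wild type (x axis), for each tested member of the gene lists with more than 5 members tested (y axis, members in brackets). Filled points are called genes (orange higher, blue lower), open points are not called, and black bars are medians, which run from 2.94 for neutrophil markers to -0.44 for the homeostatic microglial genes.

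The TREM and DAP12 list gave 3 rises and 5 falls among 26 measured members, with a median of -0.05. These were 11.5% and 19.2% of its members, against 4.65% and 2.02% of all genes tested. Besides Trem1, the rises were Pglyrp1, a peptidoglycan-binding protein of neutrophil granules that has been described as a TREM1 ligand, and Treml2. Pglyrp1 rose by 2.75 ± 0.41 (adjusted p = 0.00214), from 152, 126 and 107 to 1315, 862 and 554. Treml2, a receptor gene of the same cluster, had 0.99 ± 0.25 (adjusted p = 0.0199) and kept the call only without young wild-type replicate 3 or aged Trem1-/- replicate 2, with adjusted p of 0.0575 to 0.0916 otherwise. The falls were Trem2, the adaptor gene Card9, the exchange factor genes Vav1 and Vav2 and the phosphatase gene Inpp5d. Trem2 had 8175, 7674 and 7907 in young wild type and 5418, 4785 and 6653 in the libraries labelled aged Trem1-/-, and fell by 0.51 (SE 0.11, adjusted p = 0.00457). Its groups did not overlap, while those of Trem1 were apart in the opposite direction. Vav1 had -0.33 and Vav2 -0.32. Vav1 lost its call without young wild-type replicate 1 or aged Trem1-/- replicate 1 (adjusted p = 0.0664 and 0.0539), and Vav2 in every fit with a library left out (0.0597 to 0.181). Inpp5d, with -0.26, likewise lost it in all 6 (0.0828 to 0.161), and Card9, with -0.46, kept it only without young wild-type replicate 1 or aged Trem1-/- replicate 1 (0.0593 to 0.213 otherwise). Fits without 1 library called 2 to 4 members higher and 2 lower, and limma without trend and robust settings called 0 lower. Tyrobp, which encodes DAP12 itself, had -0.16 ± 0.13 (adjusted p = 0.562), and Syk had 0.17.

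Within 5 Mb of Trem1 on chromosome 17, 92 genes were tested, of which 10 rose (10.9%, against 4.65% of all genes tested) and 4 fell (4.35%, against 2.02%). The rises included Trem1, Treml2, Ccnd3, Vegfa, Satb1 and Pla2g7, and the falls were Trem2, Slc29a1, Slc35b2 and Cul7. These were named because of their position, after their values were seen. Vegfa, the vascular endothelial growth factor, had 1.58, and Cul7, a cullin of ubiquitin ligases, had -0.73. Of the 10 genes named here, Vegfa and Slc29a1 lost the call in 2 of the 6 fits with a library left out, Cul7 in 3, Treml2 and Slc35b2 in 4 and Satb1 in 5 (adjusted p 0.0502 to 0.155 in those fits). Pla2g7, a secreted phospholipase that hydrolyses platelet-activating factor, had 176, 73.3 and 78.6 against 458, 458 and 445 and a difference of 2.16 ± 0.41 (adjusted p = 0.00675).

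The type I interferon list held 16 rises and 26 members not called among 42 measured, with a median of 1.10. The rises were 38.1% of its members, against 4.65% of all genes tested. Cmpk2, a mitochondrial nucleotide kinase induced by interferon, had 12.1, 19.7 and 26.2 in young wild type and 255, 220 and 221 in the libraries labelled aged Trem1-/-. It rose by 3.58 ± 0.42 (adjusted p = 7.8e-06). Slfn2, a schlafen protein of T cells and myeloid cells, rose by 1.58 ± 0.15 (adjusted p = 7.2e-07), from 888, 693 and 639 to 2231, 1984 and 2392. Ifi207, a member of the p200 family of DNA-binding proteins, rose by 2.16 ± 0.29 (adjusted p = 8.4e-05), from 119, 87.5 and 61.2 to 380, 315 and 487. Groups did not overlap in any of the 3. Oas3, an oligoadenylate synthetase that activates RNase L, had 2.82, and Ifi211, a near neighbour of Ifi207, had 2.76, both past the threshold. The p200 and schlafen families consist of similar neighbouring genes, among which reads can be split, so values of single members are uncertain. Widely used interferon-stimulated genes were among the members not called. Ifit1 had 49.4, 73.3 and 23.6 against 133, 120 and 42.1 (0.97, adjusted p = 0.272), Ifit3 had 0.45, Usp18 0.34 and Isg15 1.84 (adjusted p = 0.178).

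The interferon list was called higher for 9 members without aged Trem1-/- replicate 1, for 10 without young wild-type replicate 3 or aged Trem1-/- replicate 3, for 12 without aged Trem1-/- replicate 2 and for 13 or more otherwise. Limma without trend and robust settings called 9 and DESeq2 19. The neutrophil and monocyte sums were higher in the same libraries, and their part in these rises was not tested.

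Promoters of interferon-stimulated genes often carry an interferon-stimulated response element, a short DNA element through which interferon raises their transcription. The letters searched for it were GAAA, any 2 bases (NN) and GAAA again, on both strands of RefSeq promoter windows (GRCm38.p6, from 250 bases before to 50 after the start). They occur in 3.44% of all windows. Counted by gene, where a match in any window of a gene counts once, they occur in 3.92% of the 10689 genes tested that have a window. Among genes called higher that have a window they occur in 6.27%. Shares by window and by gene are unlike measures. Of 32 interferon list members with a window, 18 hold them (56.2%). Among members called higher that have a window they occur in 4 of 11 (36.4%), and among members not called in 14 of 21 (66.7%). No window of the 23 homeostatic or 18 neutrophil genes matched holds these letters, which says only that the letters are not in this stretch. The 6 promoters below are shown in the 100 bases before the start, with the matched letters in capitals, because they set called members beside members that were not called.
Oas3: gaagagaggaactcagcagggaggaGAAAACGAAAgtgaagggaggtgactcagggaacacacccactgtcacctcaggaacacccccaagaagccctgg
Ifi211: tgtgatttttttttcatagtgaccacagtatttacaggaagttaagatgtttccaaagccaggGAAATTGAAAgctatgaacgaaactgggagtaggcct
Ifi207: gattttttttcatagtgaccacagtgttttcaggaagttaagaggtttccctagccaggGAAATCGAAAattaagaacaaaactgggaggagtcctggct
Isg15: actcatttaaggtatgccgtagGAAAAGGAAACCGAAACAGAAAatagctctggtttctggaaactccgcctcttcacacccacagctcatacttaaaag
Ifit1: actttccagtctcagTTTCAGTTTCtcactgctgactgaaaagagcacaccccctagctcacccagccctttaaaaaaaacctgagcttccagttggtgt
Trim30a: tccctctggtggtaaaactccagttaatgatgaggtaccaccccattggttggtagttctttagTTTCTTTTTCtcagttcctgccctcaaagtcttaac

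These stretches are chr5:120777660-120777759 for Oas3, chr1:173913047-173913146 for Ifi211, chr1:173741810-173741909 for Ifi207, chr4:156200819-156200918 for Isg15 and chr7:104465194-104465293 for Trim30a, all on the minus strand, and chr19:34640789-34640888 on the plus strand for Ifit1. Oas3, Ifi211 and Ifi207 were called higher. Isg15, with 3 overlapping matches, Ifit1 and Trim30a, with 1 match each on the opposite strand, were not. A match is a description of the letters and not a bound site. The letters GAGGAAGT, of the kind bound by the myeloid factor PU.1, occur in 3.20% of all windows. Counted by gene as above, they occur in 3.88% of genes tested, 6.45% of genes called higher and 7.42% of genes called lower. They occur in 6 of 18 neutrophil marker genes with a window (33.3%) and in 0 of 23 homeostatic genes.

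In the interferon gamma and class I list 3 of 26 genes rose (11.5%, against 4.65% of all genes tested), with a median of 0.15. After centring on the median gene it was 0.01, while the median over all genes tested moved from 0.003 to -0.136. The count higher was 0 without young wild-type replicate 2 or 3, 1 without any 1 of the libraries labelled aged Trem1-/-, and 0 by limma without trend and robust settings. H2-D1, a class I heavy chain, had 6897, 5502 and 5626 against 10190, 8414 and 8985 (0.62 ± 0.14, adjusted p = 0.0116), and missed the threshold in 3 of the 6 fits, those that dropped aged Trem1-/- replicate 1, young wild-type replicate 2 or young wild-type replicate 3 (adjusted p 0.0504 to 0.0591). For MHC class II and co-stimulation 2 of 14 rose (14.3%) and 1 fell (7.14%, against 2.02% of all genes tested). With a library left out 1 to 4 were called higher and 0 lower. H2-Ab1, a class II beta chain, rose by 0.78 ± 0.17 (adjusted p = 0.00674), from 724, 531 and 491 to 1149, 1034 and 799. Cd74, the invariant chain, had 1.02 ± 0.22 (adjusted p = 0.0127), lost without aged Trem1-/- replicate 1 or 2 (adjusted p = 0.0549 and 0.0752). The median of this list, -0.12, was above 0 by edgeR (0.01) and DESeq2 (0.02).

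Disease-associated microglial genes, the set that microglia raise around amyloid plaques, gave 9 rises and 1 fall among 31 measured members and a median of 0.57. The rises were 29.0% and the fall 3.23% of the members, against 4.65% and 2.02% of all genes tested. Lgals3, galectin-3, had 171, 82.0 and 91.7 in young wild type and 723, 612 and 539 in the libraries labelled aged Trem1-/-, and rose by 2.50 ± 0.30 (adjusted p = 5e-05). Lilrb4a, an inhibitory receptor, rose by 1.44 ± 0.29 (adjusted p = 0.00327), and Cd52, a small surface glycoprotein of leukocytes, by 1.02 ± 0.22 (adjusted p = 0.00523). Clec7a, the beta-glucan receptor dectin-1, rose by 1.13 ± 0.25 (adjusted p = 0.00854), from 341, 370 and 214 to 719, 626 and 636. All of these genes were higher in each library labelled aged Trem1-/- than in each young wild-type library. Members such as Lyz2, with 2.09, and Lgals3 are also expressed by monocytes and neutrophils, whose summed markers were higher in the same libraries, a part that was not tested. Other members of the list were not called, among them Cst7 with 1.24, Itgax with 0.35, Axl with 0.80, Lpl with 0.57 and Gpnmb with -1.31. The single fall, of the lysosomal protein gene Cd68 (-0.36), lost the call in every fit with a library left out (adjusted p 0.0504 to 0.217). Rises numbered 5 without aged Trem1-/- replicate 1 and 6 without replicate 2 or 3, and 2 by limma without trend and robust settings.

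Cytokine genes moved in both directions, with 4 of 24 higher and 3 lower (16.7% and 12.5%, against 4.65% and 2.02% of all genes tested). The count lower was 1 without young wild-type replicate 1 or aged Trem1-/- replicate 2 or 3. Il1b, the inflammatory cytokine interleukin-1 beta, had 115, 43.7 and 69.01 against 288, 483 and 411, and rose by 2.44 ± 0.45 (adjusted p = 0.00522). Il1r2, a decoy receptor for interleukin-1 that is abundant on neutrophils, rose by 3.22 ± 0.44 (adjusted p = 5.1e-05), from 37.3, 16.4 and 20.97 to 191, 234 and 259. Tnfrsf1b, the second receptor for TNF, fell by 0.45 (SE 0.10, adjusted p = 0.00491), from 5589, 5721 and 5708 to 4159, 3823 and 4532. Ranges were apart for each of them. Tnf itself had -0.18, Il6 -0.21 and Nlrp3 -0.08, none called. Of 21 chemokines and receptors 4 rose (19.0%) and 1 fell (4.76%). Cxcr2, the chemokine receptor of neutrophils, rose by 2.82 ± 0.31 (adjusted p = 0.00012), from 98.9, 189 and 148 to 1032, 1064 and 910. Ccr1, a receptor of several CC chemokines, rose by 1.80 ± 0.30 (adjusted p = 0.0007), and Cxcr4, the receptor of CXCL12, by 2.21 ± 0.37 (adjusted p = 0.00056). The chemokine ligands Ccl2, Ccl3 and Ccl4 had 0.21, 0.76 and 0.57 and did not pass.

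Receptors and effectors of innate sensing were split in a like way. Tlr8, a sensor of single-stranded RNA, rose by 2.24 ± 0.50 (adjusted p = 0.00726), from 38.3, 10.9 and 31.5 to 158, 134 and 73.7. Irak3, a brake on Toll-like receptor signalling, rose by 1.61 ± 0.25 (adjusted p = 0.00021). Cd14, the lipopolysaccharide co-receptor, fell by 0.58 (SE 0.12, adjusted p = 0.00464), from 2885, 2909 and 3027 to 2219, 1868 and 1840, and Unc93b1, which escorts Toll-like receptors to endosomes, fell by 0.41 (SE 0.10, adjusted p = 0.00878). These were the 4 calls among 23 genes of the list. They made up 8.7% in each direction, against 4.65% higher and 2.02% lower of all genes tested. In the complement list 3 of 17 rose (17.6%). C3, the central complement protein, rose by 2.82 ± 0.41 (adjusted p = 0.00487), from 898, 643 and 402 to 6083, 4799 and 2790. Cfp, properdin, rose by 3.23 ± 0.45 (adjusted p = 0.00012). The genes of C1q, C1qa, C1qb and C1qc, had -0.23, -0.31 and -0.29 and did not pass.

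Phagocytic and scavenger receptor genes gave 3 rises and 5 falls among 28 (10.7% and 17.9%, against 4.65% and 2.02% of all genes tested). Cd300lf, a lipid-binding receptor, rose by 2.31 ± 0.31 (adjusted p = 0.00013), from 144, 106 and 66.4 to 530, 591 and 406. Msr1, scavenger receptor A, rose by 1.59 ± 0.37 (adjusted p = 0.00882), from 47.6, 30.6 and 33.2 to 131, 97.1 and 110. Pros1, a bridging ligand for the uptake receptor gene Mertk, had -0.36 and Mertk -0.29, and they lost the call in 4 and 5 of the 6 fits with a library left out (adjusted p 0.0517 to 0.0815 and 0.0567 to 0.173). With a library left out, 1 to 4 members were called lower, and limma without trend and robust settings called 0. Havcr2, also called Tim-3, had -0.36 ± 0.10 (adjusted p = 0.0359) and stayed called only without aged Trem1-/- replicate 1.

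Lysosomal genes fell in part. Of 36 cathepsins and lysosomal hydrolases 10 fell (27.8%, against 2.02% of all genes tested), with a median of -0.19. Lgmn, the asparaginyl endopeptidase legumain, had 51030, 46550 and 50530 in young wild type and 37080, 32100 and 35290 in the libraries labelled aged Trem1-/-, and fell by 0.51 (SE 0.08, adjusted p = 0.00043). Grn, progranulin, fell by 0.44 (SE 0.09, adjusted p = 0.00235), from 23770, 20020 and 22140 to 17750, 15000 and 15950. Ctsd, cathepsin D, had -0.21, and Ctsb, cathepsin B, -0.18, and neither passed. Means of Lgmn and Grn were 48970 and 23910 in young mice labelled Trem1-/- and 40580 and 20070 in aged wild type. Of 29 lysosomal membrane and acidification genes 5 fell (17.2%). However, 0 were called lower without aged Trem1-/- replicate 2 and 1 to 4 without another library, and limma without trend and robust settings called 0. Laptm5, a lysosomal protein of blood cells and microglia, had -0.36 ± 0.08 (adjusted p = 0.00815), and lost the call without young wild-type replicate 3 or aged Trem1-/- replicate 2 (adjusted p = 0.0667 and 0.0754). Hydrolase list members called lower numbered 4 without young wild-type replicate 3 or aged Trem1-/- replicate 2 and 5 without young wild-type replicate 1, and limma without trend and robust settings called 0 of them.

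Sugar metabolism genes rose in part. In glycolysis and glucose transport 8 of 28 rose (28.6%, against 4.65% of all genes tested), with a median of 0.41. Pkm, pyruvate kinase, had 3762, 3769 and 4189 in young wild type and 7950, 6793 and 7202 in the libraries labelled aged Trem1-/-. It rose by 0.90 ± 0.11 (adjusted p = 2e-05). Slc2a3, the glucose transporter GLUT3, rose by 1.88 ± 0.25 (adjusted p = 0.00018), from 214, 356 and 281 to 1506, 935 and 766. Gpi1, glucose-6-phosphate isomerase, rose by 0.81 ± 0.13 (adjusted p = 0.00025). In all 3 the ranges were apart. Slc2a5, the fructose transporter of microglia, had -0.28 and did not pass. In the pentose phosphate pathway 4 of 11 rose (36.4%). G6pdx, its first enzyme, rose by 1.04 ± 0.17 (adjusted p = 0.00042), from 938, 769 and 778 to 2117, 1740 and 1334, and Pgd, which follows in the pathway, by 0.69 ± 0.12 (adjusted p = 0.00074). Every fit with a library left out called 4 genes of this pathway. Limma without trend and robust settings called 4 of the glycolysis list and 2 of the pentose phosphate list. Neutrophils also rely on both pathways, and the summed neutrophil markers moved with these genes, a part that was not tested.

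Few mitochondrial genes were called. In the tricarboxylic acid cycle 3 of 28 rose (10.7%), among nuclear subunits of oxidative phosphorylation 3 of 76 (3.95%) and in the mitochondrial genome 0 of 13, against 4.65% of all genes tested. Their medians of 0.15, 0.16 and 0.18 became 0.01, 0.02 and 0.04 with centring. Centring moved the median over all genes tested as well, from 0.003 to -0.136. In the mitochondrial genome 0 genes passed at an unadjusted p under 0.05, and edgeR and DESeq2 called 0. The 3 calls in the cycle, Idh3a, Mdh1 and Me1, each failed in at least 4 of the 6 fits with a library left out. Without aged Trem1-/- replicate 2, 0 genes of the cycle and 0 of the nuclear subunits were called higher, and limma without trend and robust settings also called 0 of both. Limma called 0 of 77 ribosomal protein genes and 0 of 30 splicing factors, with medians of -0.05 each. At an unadjusted p under 0.05 the ribosomal list held 1 higher and 6 lower genes and the splicing list 2 lower ones. DESeq2 called 0 and 1 of them lower, and centring on the median gene 4 of each.

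Lipid handling genes gave 6 rises and 1 fall among 27 (22.2% and 3.7%, against 4.65% and 2.02% of all genes tested). Abcg1, a cholesterol efflux transporter, fell by 0.57 (SE 0.10, adjusted p = 0.00117), from 3855, 3501 and 3982 to 2604, 2439 and 2593. Apoe, the main lipoprotein of the brain, had 13000, 12410 and 8336 against 17500, 15340 and 16820, with 0.58 ± 0.14 (adjusted p = 0.0158), and missed the threshold without aged Trem1-/- replicate 1 or 3 (0.0645 and 0.0531). Dgat2, an enzyme of triglyceride synthesis, had 2.07 ± 0.47 (adjusted p = 0.00814), which became 0.0741 without aged Trem1-/- replicate 1. Without that library 1 member of the list was called higher, and 3 without aged Trem1-/- replicate 2. Cholesterol synthesis had 0 limma calls among 22, with 3 higher and 1 lower at an unadjusted p under 0.05 and 0 calls by edgeR and DESeq2. Its median of 0.10 turned to -0.04 on centring, which moved the median over all genes tested from 0.003 to -0.136.

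Cell cycle genes had 8 rises among 35 (22.9%, against 4.65% of all genes tested), with a median of 1.21. Ccnd3, a D-type cyclin that drives entry into the cycle, had 606, 905 and 784 in young wild type and 1580, 2004 and 1787 in the libraries labelled aged Trem1-/-. It rose by 1.24 ± 0.16 (adjusted p = 2.4e-05). Cenpe, a kinetochore motor, rose by 2.02 ± 0.31 (adjusted p = 0.00025), from 135, 65.6 and 99.6 to 366, 535 and 307, and Kif11, a spindle motor, by 1.74 ± 0.38 (adjusted p = 0.00634). Groups of the 3 did not overlap. Mki67, the proliferation antigen, had 1248, 655 and 510 against 3930, 3617 and 1163, and Top2a 1.81, and neither passed (Mki67 1.77, adjusted p = 0.128). Replication genes Mcm2, Mcm5 and Pcna had 0.13, 0.25 and 0.12. The number of rises was 3 without aged Trem1-/- replicate 2, 5 without aged Trem1-/- replicate 1 or without replicate 2 or 3 of young wild type, and 12 without aged Trem1-/- replicate 3. Limma without trend and robust settings called 3.

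Among stress and redox genes, 5 of 26 antioxidant and NADPH oxidase genes rose (19.2%, against 4.65% of all genes tested). Prdx6, a peroxiredoxin, rose by 1.34 ± 0.21 (adjusted p = 0.00027), from 174, 178 and 239 to 556, 502 and 438, and Rac2, a small GTPase of the phagocyte oxidase, by 0.83 ± 0.15 (adjusted p = 0.00119). Immediate early genes had 4 rises among 23 (17.4%). Fosl2, an AP-1 subunit, rose by 1.49 ± 0.17 (adjusted p = 7.8e-06), from 464, 387 and 462 to 1522, 1171 and 1027, while Jun had -0.41 and Junb -0.02 with no call. Klf2, a factor of quiescent leukocytes and endothelium, rose by 1.36 ± 0.29 (adjusted p = 0.00648). Heat shock genes had 1 rise of 26 (3.85%, against 4.65% of all genes tested), Hsp90aa1 with 0.98 (adjusted p = 0.0465), which failed in each fit with a library left out (0.0815 to 0.128). The median of that list, 0.12, was -0.02 on centring, which moved the median over all genes tested from 0.003 to -0.136.

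Microglial transcription factors had 3 rises and 3 falls among 32 (9.38% each, against 4.65% and 2.02% of all genes tested). Sall1 fell by 0.49 (SE 0.10, adjusted p = 0.00268), from 25480, 26820 and 27420 to 19720, 17020 and 19990. Irf8 and Mef2c, lineage factors of microglia, had -0.34 ± 0.10 and -0.34 ± 0.09, and both lost the call in all 6 fits with a library left out (adjusted p 0.0534 to 0.187). Spi1, which encodes PU.1, had -0.11. In the TGF-beta and BMP list 3 of 24 fell (12.5%, against 2.02% of all genes tested) and 1 rose (4.17%, against 4.65%). Tgfbr2, the type II receptor, fell by 0.44 (SE 0.09, adjusted p = 0.0036), from 14370, 14150 and 14670 to 11670, 10070 and 10250. Sall1, Irf8, Mef2c and Tgfbr2 were lower in every library labelled aged Trem1-/- than in every young wild-type library, while the ranges of Spi1 overlapped. With a library left out, 1 to 3 of the transcription factors were called higher and 1 lower, and 1 to 4 of the TGF-beta and BMP genes were called lower. Limma without trend and robust settings called 0 in both lists.

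Values of the other groups were set beside the pair for the same genes. These comparisons share the young wild-type libraries. For Retnlg the difference from young wild type was 2.82 in the libraries labelled aged Trem1-/-, 3.33 in aged wild type and 1.42 in young mice labelled Trem1-/-. For Cmpk2 these values were 3.58, 3.17 and 2.21. For Golm1 they were -0.70, -0.52 and -0.28, and for Lgmn -0.51, -0.29 and -0.01. Ccnd3 gave 1.24, 0.94 and 0.75, and Slc2a3 gave 1.88, 2.21 and 0.86. Folr1 gave 1.69, 1.63 and -0.44. Ly6c2 gave 2.98, 3.28 and 3.02, Lgals3 2.50, 2.92 and 2.76, and Fosl2 1.49, 1.79 and 1.41. The first 7 of these genes had their value in the libraries labelled aged Trem1-/- nearer to that of aged wild type, and the last 3 nearer to that of young mice labelled Trem1-/-. The 10 genes are examples chosen after their values were seen.

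The interaction term asked whether the difference between the labelled genotypes was the same at both ages: it is the labelled Trem1-/- minus wild-type difference in aged mice minus that in young mice. It was above 0 for 64 genes (0.398%) and below 0 for 344 (2.14%), which is 408 in either direction (2.54%). A negative value means that the labelled genotype difference was lower in aged than in young mice. The 5 genes with the smallest p were Tagln2, Ifitm2, S100a11, Sorl1 and Slfn2. Tagln2, an actin-binding protein, had means of 273 in young wild type, 1009 in young mice labelled Trem1-/-, 777 in aged wild type and 530 in the libraries labelled aged Trem1-/-, and its interaction was -2.41 (adjusted p = 5.7e-05). Ifitm2, an interferon-induced membrane protein, had 25.0, 267, 376 and 202 in the same order and an interaction of -4.21. S100a11, a calcium-binding protein, had 173, 879, 2028 and 1424 and an interaction of -2.85. In all 5 genes young wild type was the lowest group and its 3 libraries lay below all others. The difference between the labelled genotypes was above 0 in young mice and below 0 in aged mice. For the type I interferon list, which holds Slfn2, limma called 15 of 42 members higher in young mice labelled Trem1-/- than in young wild type. In that comparison it also called 8 of 19 neutrophil and 8 of 15 monocyte markers higher. Between the 2 aged groups it called 0 members in either direction in the interferon list and in every other gene list, so this is not particular to interferon genes. The share over all genes tested is not given here for either comparison. S100a11 also had the smallest adjusted p of the comparison itself, with 166, 160 and 193 against 1806, 1483 and 982, a rise of 2.995 ± 0.22 (adjusted p = 2.3e-07). Sorl1, a sorting receptor for the amyloid precursor protein, rose by 1.52 ± 0.14 (adjusted p = 2.2e-06), from 2590, 2041 and 2158 to 6945, 6493 and 6005, with an interaction of -1.83.

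**Figure D4:**
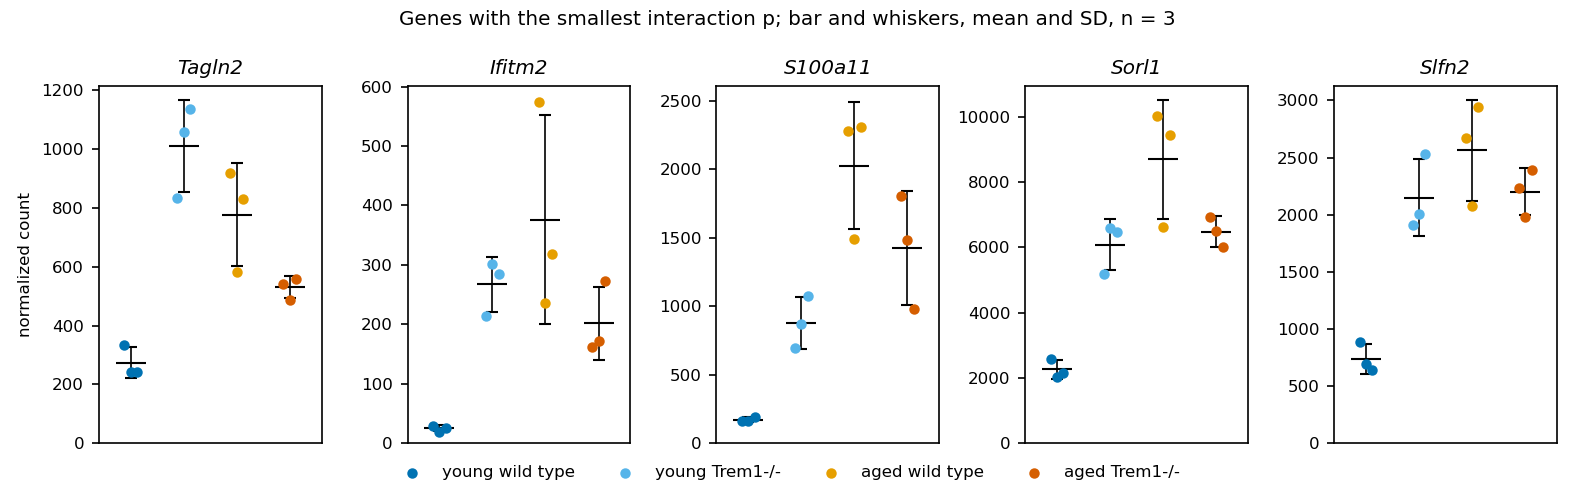
Normalised counts (y axis, linear, from 0) of the 5 genes with the smallest interaction p in the 12 libraries, with points for libraries, a bar for the mean and whiskers for the SD (n = 3 per group). The young wild-type points are the lowest in each panel, as in S100a11 with 160 to 193 against 982 to 1806 in the libraries labelled aged Trem1-/-.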

How the data were processed

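RNA of primary mouse brain microglia was extracted with an RNeasy kit and made into NEBNext Ultra libraries, per the labels' protocols. Per the submitters' processing notes, the tools were fastp, HISAT2 2.0.5, featureCounts 1.5.0-p3 and DESeq2 1.20.0 with GRCm38. The annotation release and the use of strand are not given in the sources used here. The deposited values are a signal, read counts per gene divided by a size factor by the authors. Whole reads were recovered from the step that 1 read is worth in each library (100% of nonzero values within 0.05 read), and their totals are the depths. A floor of 3 reads is 2.06 to 4.51 normalised counts. The authors' fold changes and p-values were not used.

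Genes with a mean of at least 10 over the 12 libraries (16086) were tested on log2(value + 1). This was 1 fit of 4 group means by limma 3.58.1 with its trend and robust settings, in R 4.3.3. Fold changes of low genes depend on the added 1 and on values of 0, and can come out larger or smaller than by other tools. Elane had 5.78 by limma and 4.71 by DESeq2, and Prtn3 5.35 and 4.64. Phldb2 had 5.14 and 5.51, and Slc28a3 4.65 and 5.04. The smallest p an exact permutation test of 3 against 3 allows is 0.1, so none was used. DESeq2 1.42.0 and edgeR 4.0.16 were run on the recovered reads. In data simulated for this comparison (16086 genes), 67, 67 and 66 genes with a mean of at least 50 were given a 1.5-fold, 2-fold and 4-fold change. The fit called 19.4%, 55.2% and 78.8% of them, and it also called 2 genes given no change. Fewer genes were changed than the 1073 called in the data. The adjusted p depends on that number, so these shares need not hold for the real comparison.

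Genes named are Trem1, the 10 largest rises and falls among called genes with non-overlapping groups and a mean of at least 50 in the higher group, up to 3 called members in each direction of each of 46 gene lists (or, with no call, the member with the smallest p), and the 5 smallest interaction p. Other members are named where a list is described, chosen after their values were seen. Some genes chosen in this way are not reported here, and a list count may include them. The comparison and the lists were chosen with earlier results of these data known. Positions are from GENCODE M21, matched by symbol for 15971 genes. Replicates were checked for duplicates (chi-square per degree of freedom 12.5 to 42.6). Alternatives were other pseudocounts, filters, scalings, tools, a replicate block, and each library left out.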

Additional observations from a re-analysis of the deposited data

Results flagged for a closer look

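Genes whose labelled genotype difference differed between the ages, by the interaction term of the limma fit, numbered 64 above 0 and 344 below 0. Without 1 of the 12 libraries the number past the threshold ranged from 197, without aged wild type replicate 3, to 790, without aged wild type replicate 2.

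The interaction of Trem1 was -3.40 (adjusted p = 0.00429). By limma the labelled Trem1-/- libraries were above wild type by 2.85 in young mice. In aged mice the difference was -0.55 and was not called (adjusted p = 0.743). Prtn3 had an interaction of -4.94 (adjusted p = 0.0203) and Steap4, a metalloreductase gene, of -6.47 (adjusted p = 0.0212). Steap4 was also called higher in the libraries labelled aged Trem1-/- than in young wild type, by 4.64, a call lost in 3 of the 6 fits with a library left out (adjusted p 0.0559 to 0.0735). Tagln2 had -2.41, Ifitm2 -4.21, S100a11 -2.85, Sorl1 -1.83 and Slfn2 -1.75, the 5 genes with the smallest interaction p. The summed neutrophil markers were 17660 to 26520 in young wild type, 39380 to 78720 in young mice labelled Trem1-/-, 84260 to 151800 in aged wild type and 70020 to 161700 in the libraries labelled aged Trem1-/-, and their part in these interactions was not tested.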

How the results depend on the processing

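The count of genes higher was 748, and 338 with limma without trend and robust settings. The count lower was 325, and 31 without trend and robust settings, 1044 with centring on the median gene and 22 with a fold of at least 2. The interaction called 408 genes, 5 without trend and robust settings and 769 by DESeq2. With each library left out the ranges were 460 to 675 higher, 146 to 298 lower and 197 to 790 for the interaction, which was 248 without young wild type replicate 2, 251, 203, 235, 197, 221 and 251 without young Trem1-/- replicates 2 and 3, aged wild type replicates 1 and 3 and aged Trem1-/- replicates 2 and 3. The cause of these shifts was not tested, except that each such fit holds fewer samples. A replicate block gave 761 higher, 354 lower and 557 for the interaction. Residuals of same-numbered libraries correlated by -0.136 to 0.0988 over 18 pairs (median 0.0119), so no pairing by number was seen over all genes. With 3 libraries per group this cannot decide whether some genes share a pairing. Of 139 named genes 127 were called, and 74 of these kept the call with each library left out. None of the 139 changed sign under the alternatives run. Limma without trend and robust settings ended 77 of the calls, edgeR 18, centring 7 and DESeq2 3. Depth limits the low genes: values near the floor of 3 reads carry no stable fold.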
